A study of Homo sapiens with 14 samples.

Results

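The balance between RelB and RelA ChIP reads was measured in all 14865 NF-κB regions of L1236 cells, an established Hodgkin lymphoma cell line. In 10826 of these regions neither RelA nor RelB was called, so the ratio there compares reads without a called peak of either. For each of the 14865 regions, which are the union of the regions called for p50, p52, RelA and RelB, the RelB reads and the RelA reads were each increased by 1, divided by the sum of that subunit over all regions, and set against each other as a log2 ratio. No region was left out. Formaldehyde-fixed chromatin of L1236 cells was immunoprecipitated with rabbit polyclonal antibodies against RelA or RelB, in 2 replicates each, and p50, p52 and 6 input libraries completed the 14 samples of the series. The authors merged the replicates into 1 read count per subunit and region, so that no replicate error exists for the ratio. Exact intervals of the read share cover counting error only. Order-statistic intervals of medians and Wilson intervals of shares cover the spread over regions or promoters only. No test of a difference was possible. L1236 is 1 cell line, and the efficiency of the antibodies cannot be told apart from the occupancy of the subunits. In the study's quality control the RelA libraries had a lower normalized strand cross-correlation, a measure of ChIP signal over background, than the RelB libraries.

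NF-κB proteins bind DNA as dimers. RelA, a subunit with a transactivation domain, pairs mainly with p50 in the canonical pathway, where signals lead to the degradation of IκBα and the release of RelA/p50 into the nucleus. RelB pairs mainly with p52 in the non-canonical pathway, in which the precursor p100, the product of NFKB2, is processed to p52. Both pathways are known to be active in Hodgkin lymphoma cells.

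The NF-κB consensus, a decamer of a G-rich and a C-rich end, was searched on both strands in the promoters of genes whose transcription start site (TSS) lay in a region. Promoters were the RefSeq sequences of build GRCh38.p14, from 250 bases before to 50 bases after the start, and were matched to the hg18 regions by symbol and chromosome, which succeeded for 296 of 396 such regions with a gene symbol. A single promoter was taken per symbol, and its position was not compared with that of the region. For a gene with several starts the promoter can therefore lie outside the region. The sites below are those of the 3 highest and the 2 lowest ratios among regions with at least 50 RelA and RelB reads and a match, and those of REL, NFKBIA and NFKB1, because they show the same consensus at promoters with very different balances. The consensus is in capitals and up to 10 flanking bases on each side are in lower case, on the strand of the gene.
PTGER4: agcaccGGGGCTTCCCagggtcccct
ANKRD33B: ccgaagcccGGGATCCCCCgaagggagaa
BCL3: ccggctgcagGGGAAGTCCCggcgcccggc
NFKBIA: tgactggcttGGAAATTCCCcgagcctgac
REL: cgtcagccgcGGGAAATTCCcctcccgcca
NFKB1: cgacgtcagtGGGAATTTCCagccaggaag
PPP2R5B: tctgccctcaGGGGTGTCCCctttggtctg
BIRC6: tcgcaagggcGGGGGTCCCCacctagcgga

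The capitals lie at chr5:40679671-40679680 on the plus strand for PTGER4, a prostaglandin E receptor, and at chr5:10563829-10563838 on the plus strand for ANKRD33B. For BCL3, an atypical IκB protein, they lie at chr19:44748710-44748719 on the plus strand, and for NFKBIA, the gene of IκBα, at chr14:35404821-35404830 on the minus strand. The site of REL, the gene of c-Rel, is at chr2:60881527-60881536 on the plus strand and overlaps a further match shifted by 1 base. The site of NFKB1, the gene of p105 and p50, is at chr4:102501310-102501319 on the plus strand. The low-ratio sites are at chr11:64924554-64924563 on the plus strand for PPP2R5B, a phosphatase regulatory subunit, and at chr2:32356808-32356817 on the plus strand for BIRC6, an inhibitor of apoptosis protein. These matches are a description of the letters and not of occupied sites.

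The region at PTGER4 held 26 RelA and 155 RelB reads, a log2 ratio of 1.95, and that at BCL3 held 64 and 298 reads, a ratio of 1.62. The region at NFKBIA held 190 RelA and 620 RelB reads and that at REL 83 and 223, with ratios of 1.12 and 0.84. At NFKB1 the TSS region held 66 RelA and 95 RelB reads, and its ratio of -0.06 had an exact interval from -0.52 to 0.42 that spans equal shares. The region at BIRC6 held 38 RelA and 15 RelB reads, a ratio of -1.86 with an interval from -2.89 to -1.02. RelB reads thus outnumbered RelA reads in some regions matched to a promoter with the consensus and were fewer in others.

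A match was found in 58 of the 296 promoters, 19.6% with a Wilson 95% interval from 15.5% to 24.5%, against 5.91% of all 35116 RefSeq promoters of the same length. Among the 74 promoters with the lowest ratio quartile 8 held a match (10.8%, interval 5.58% to 19.9%), followed by 13, 18 and 19 of 74 in the higher quartiles. In the highest quartile the share was 25.7%, with an interval from 17.1% to 36.7% that overlaps that of the lowest. Median RelA reads were nearly equal in these quartiles, from 29 to 31, whereas median RelB reads were 18.5, 34, 48.5 and 85. Median p50 reads were 132.5 in the lowest and 261 in the highest quartile. The genes with a symbol come from tables of the study that could be read only in part, so these promoters are not a random draw. As positions were not compared, these shares may include promoters outside the region.

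RelB reads varied more between regions than RelA reads. The deposited counts summed to 315151 for RelA and 470788 for RelB over all regions, with medians of 14 and 19 reads in a region. The density of RelA reads had a median of 15.6 reads per kb, and its 10th and 90th percentiles, 7.35 and 28.9 reads per kb, differed 3.94-fold. For RelB the median was 20.9 reads per kb, and the percentiles, 7.73 and 53.2 reads per kb, differed 6.88-fold. On the log2 scale the SD over regions was 0.81 for RelA density and 1.05 for RelB density. The ratio followed RelB density with a Spearman rho of 0.677 (Pearson r = 0.669, n = 14865 regions of the same merged libraries) and RelA density with a rho of -0.248 (r = -0.271). These correlations share reads with the ratio. RelA and RelB densities rose together, with a rho of 0.473.

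**Figure D1:**
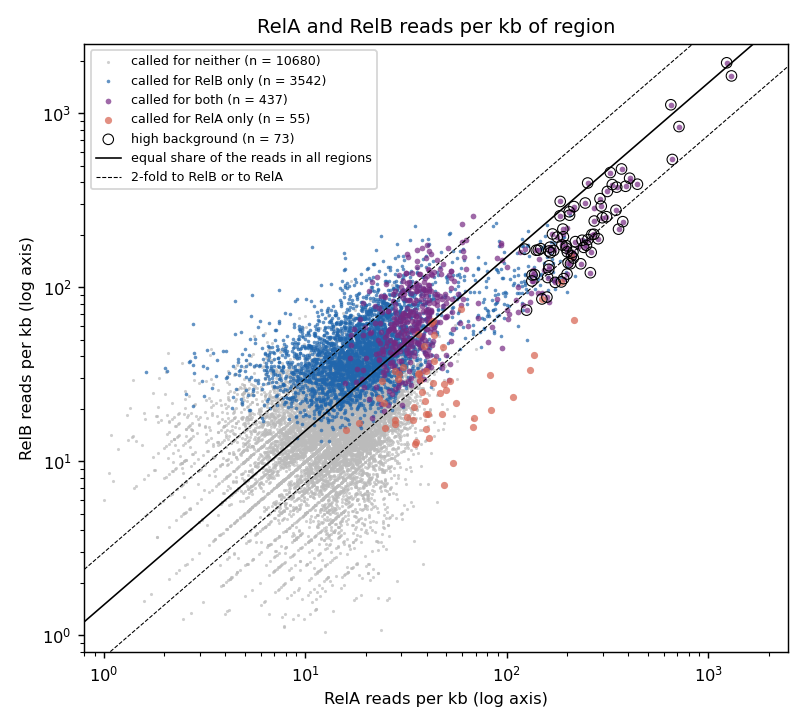
RelA (x axis) and RelB (y axis) reads per kb of each region on log axes, coloured by the authors' calls, without the 151 regions with no read for RelA or for RelB. The cloud is taller than it is wide, and the 73 circled high-background regions lie at the upper right, mostly under the solid line of equal shares.

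The median log2 ratio was -0.16 (order-statistic 95% interval -0.18 to -0.15), with quartiles of -0.75 and 0.42. Of the 14865 regions 1432 were at least 2-fold to RelB (9.63%, Wilson interval 9.17% to 10.1%) and 2475 at least 2-fold to RelA (16.6%, interval 16.1% to 17.3%). An exact interval of the read share that excluded equal shares was found for 11.2% of regions to RelB and for 13.4% to RelA. The value of 0 stands for equal shares of the reads that fell in all regions, and it depends on the scaling. With the libraries' mapped reads as the scale every ratio was 1.92 higher, and with these limited to 10000000 per library 1.10 higher, while the order of the regions stayed as it was. Statements on direction and shares past 2-fold therefore hold relative to the sums over all regions. Differences of median ratios between groups of regions do not depend on that choice.

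Counting error made up most of the spread only where reads were few. In the 1040 regions with fewer than 10 RelA and RelB reads the SD of the log2 ratio was 1.20, and counting alone would give 1.13. In the 3196 regions with 50 to 99 reads the SD was 0.74 against 0.37 from counting, and in the 367 regions with 200 or more reads it was 0.88 against 0.19. The regions with many reads thus differed in their balance by more than sampling of reads gives. The merged counts hold no measure of how much of this recurs between replicates, and the signal values given for the replicates of 437 regions are described with the fold enrichment.

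**Figure D2:**
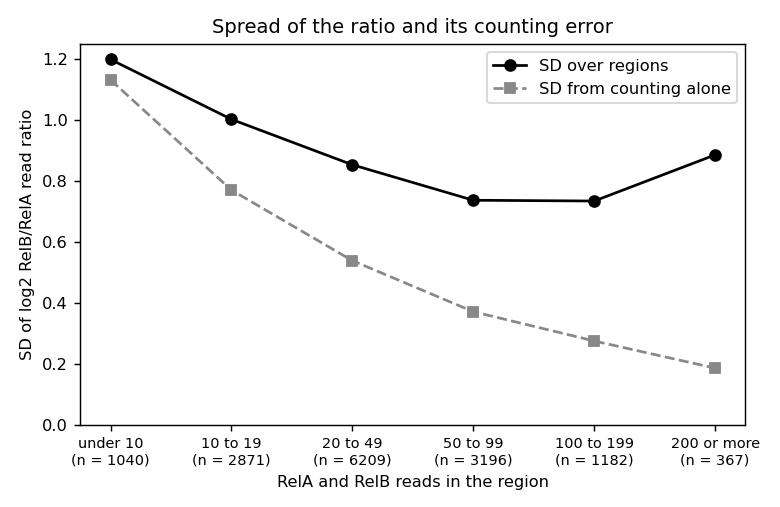
SD of the log2 RelB/RelA ratio over regions (circles) and the SD from counting alone (squares), by the number of RelA and RelB reads in the region. The curves start at 1.20 and 1.13 and are at 0.88 and 0.19 in the regions with the most reads.

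The balance differed with the partner subunits called. Regions called for p50 alone (3158) had a median ratio of -0.58, those called for p52 alone (2936) of -0.36, and those called for p50 together with p52, without a call for the other subunits (4732), of -0.26. The shares at least 2-fold to RelA in these 3 classes were 31.7%, 22.0% and 15.4%. These 3 classes have no RelA or RelB call by definition, and all 10881 regions without a RelB call had a median of -0.39. Where RelB was called as well, the medians were 0.37 with p50 (151 regions), 0.42 with p52 (287), 0.54 with both (2539) and 0.60 with RelB alone (570). The 349 regions called for all 4 subunits had a median of 0.25. The 26 regions called for RelA alone had a median of -1.91. Calls of RelA and RelB rest on the same reads as the ratio, so the medians of all these combinations describe the calls.

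**Figure D3:**
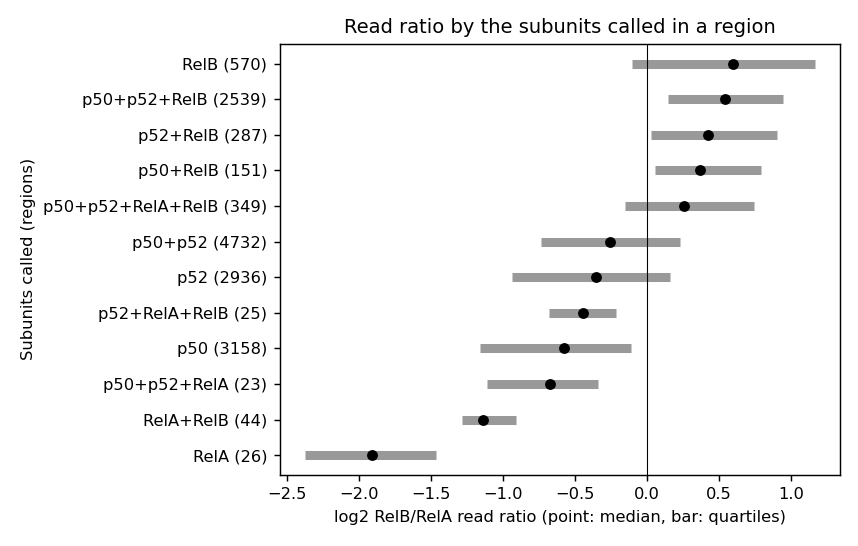
Median (point) and quartiles (bar) of the log2 RelB/RelA read ratio by the subunits called in a region, for the 12 combinations with at least 20 regions (numbers in parentheses). Combinations with RelB but not RelA lie at the top with medians of 0.37 to 0.60, and RelA alone lies at the bottom at -1.91.

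The ratio also followed the balance of p52 over p50 reads, which shares no reads with it. In the quartile of regions with the lowest p52/p50 read ratio the median RelB/RelA ratio was -0.53 (interval -0.58 to -0.48), and 27.3% of regions were at least 2-fold to RelA. In the next quartiles the medians were -0.15, 0.06 and 0.01. The rise therefore lay between the lowest and the third quartile of the p52/p50 ratio. Spearman's rho over all regions was 0.212 (Pearson r = 0.195). It was 0.262 in the regions with at least 20 RelA and RelB reads and 0.104 in the regions called for RelB or RelA. The p52 replicates, merged in these counts, were made with different antibodies.

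A difference in favour of RelA reads was seen at transcription start sites, where most regions had no call for RelA or RelB. Of the 2447 regions overlapping a TSS, 116 (4.74%) were called for RelA and 634 (25.9%) for RelB. Over all regions these shares were 3.31% and 26.8%. The 2447 regions overlapping a TSS had a median ratio of -0.36 (interval -0.39 to -0.33), against -0.16 in the 542 regions up to 1 kb away and -0.09 in both the 2556 regions at 1 to 10 kb and the 6569 regions at 10 to 100 kb. In the 2693 regions over 100 kb away the median was -0.16, and in the 58 regions with no TSS listed within 1 Mb -0.47. The difference of medians between TSS regions and all regions over 10 kb away was -0.24. Only 4.70% of TSS regions were at least 2-fold to RelB, against 10.9% at 10 to 100 kb, while 18.96% and 15.9% were at least 2-fold to RelA. Both subunits had more reads per kb at TSS regions than at 10 to 100 kb.

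The median RelA density was 18.7 reads per kb at TSS regions and 14.8 at 10 to 100 kb, whereas the median RelB density was 21.4 and 20.7 reads per kb. Regions at a TSS were wider, with a median width of 1358 bp against 792 bp, and within each width quartile the TSS regions were lower, by 0.35 to 0.47. In the narrowest quartile the medians were -0.73 at the TSS and -0.26 over 10 kb away, with RelA densities of 20.7 and 13.1 and RelB densities of 18.4 and 16.6 reads per kb. In the widest quartile the medians were -0.24 and 0.11, with RelA densities of 18.4 and 17.8 and RelB densities of 22.6 and 28.9 reads per kb. RelA density was thus higher at the TSS in narrow regions and RelB density lower at the TSS in wide ones. Within quartiles of p50 and p52 reads the TSS regions were lower by 0.29 to 0.37. Within the 7 combinations of calls with at least 20 regions of each kind they were also lower, by 0.03 to 0.28.

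Within quartiles of the p52/p50 read ratio the difference did not keep its direction. In the lowest quartile, which held 1470 of the 2447 TSS regions, the median was -0.58 at the TSS and -0.44 over 10 kb away. In the second quartile the medians were -0.11 (interval -0.16 to -0.04) and -0.18 (-0.24 to -0.14), and in the third 0.27 (0.15 to 0.42) and 0.04 (0.01 to 0.07). The highest quartile held 32 TSS regions, whose median of 0.18 had an interval from -0.20 to 0.61. TSS regions thus lay toward RelA together with p50, and those with relatively more p52 lay toward RelB. The part of p50 in the TSS difference was not tested.

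**Figure D4:**
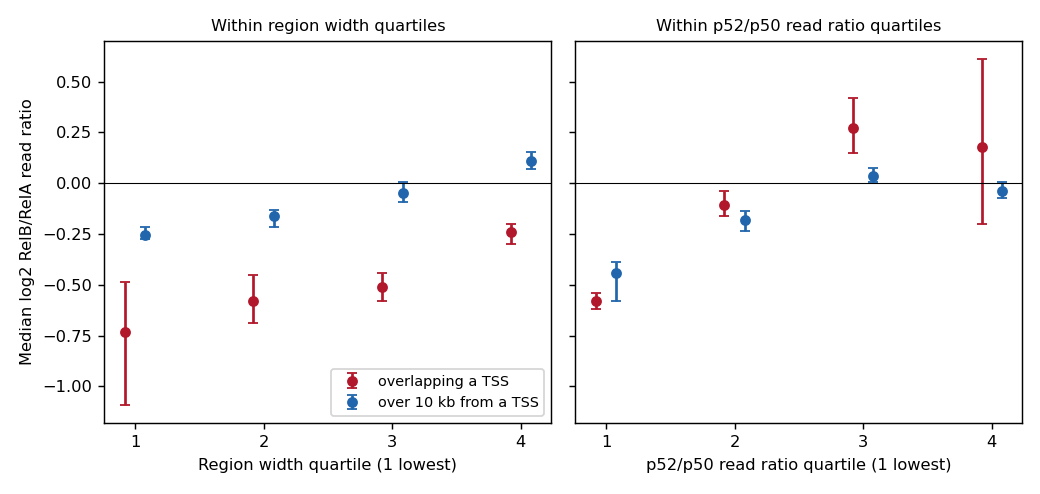
Median log2 RelB/RelA read ratio with order-statistic 95% intervals of regions overlapping a TSS (red) and over 10 kb from a TSS (blue), within quartiles of region width (left) and of the p52/p50 read ratio (right). Red lies below blue in each width quartile, but above it in p52/p50 quartiles 2 to 4.

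The ratio also varied with width and total reads. From the narrowest to the widest quartile the median ratio was -0.26, -0.22, -0.16 and -0.05, and the rho with width was 0.094. With more reads of all 4 subunits the quartile medians were -0.36, -0.34, -0.19 and 0.20 (rho = 0.232). Total reads hold the RelA and RelB reads themselves. By p50 and p52 reads alone the medians were -0.32, -0.36, -0.21 and 0.19, and the ratios of the summed reads, which need no added read, were -0.13, -0.30, -0.18 and 0.17. The rise thus lay in the top quartile. The added read draws a region with no reads to -0.58. With an added count in proportion to each sum, the difference between the most and the fewest total reads was 0.48 instead of 0.56.

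These relations depended on the regions taken. With at least 20 RelA and RelB reads the difference between the widest and narrowest quartiles turned from 0.21 to -0.15, and that between the most and the fewest total reads shrank from 0.56 to 0.08. In the regions called for RelB or RelA they were -0.21 and -0.40. The TSS difference was -0.40 and -0.20 in these subsets and kept its sign. In the 437 regions called for both subunits it did not. There the median ratio was 0.20 in 98 TSS regions and 0.06 in 255 regions over 10 kb away. The median log2 ratios of their fold enrichments over input were 0.88 and 1.10, lower at the TSS.

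Fold enrichment over input was compared in the 437 regions called for both subunits. The median was 6.36 for RelA and 13.3 for RelB, and the median log2 ratio of the fold enrichments was 1.09 (interval 1.02 to 1.16), with RelB higher in 409 regions. At least 2-fold higher for RelB were 244 regions (55.8%). The read count ratio of the same regions had a median of 0.11, and the ratios were correlated over these regions (rho = 0.738). The count ratio is relative to the sums over all regions and the fold enrichment to input. Their medians therefore have different zero points and cannot be compared in size. The signal values entered for the replicates gave median log2 ratios of 2.22 in the first column and 3.09 in the second, whose correlation with each other was weak (rho = 0.145). The order of the regions by this ratio thus differed between the columns. As the scale of the signal values is not named, their medians are not read as a direction. Which replicate each column holds is not given. The summits of both subunits lay a median of 22 bp apart.

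RelA was called in far fewer regions than RelB. It was called in 492 regions, against 3984 for RelB, and 55 of the RelA regions were not called for RelB. RelA density had a median of 38.4 reads per kb in called and 15.3 in other regions, and RelB density of 44.1 and 16.5. In 68 of the 492 RelA regions the pileup over the fold enrichment of some subunit, a measure of the local background, was more than 5 times the median for that subunit. These 68 regions had a median ratio of -0.82, against 0.14 in the other 424. Of the 492, the 70 regions without a p50 or p52 call had a median of -1.27 and the 422 others of 0.14.

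The regions with the most reads were of this kind. The region with the most RelA reads was also that with the most RelB reads, chr6:58884033-58887415 (hg18), with 4410 RelA, 5543 RelB, 3246 p50 and 4821 p52 reads and a ratio of -0.25. The next by RelA reads, chr19:32423545-32432331, held 2774 RelA and 3121 RelB reads, and no TSS was listed within 1 Mb. In total 73 regions had such a background, and they held 10.2% of RelA and 7.39% of RelB reads. All 4 subunits were high there, with medians of 228 RelA, 215 RelB, 191 p50 and 210 p52 reads in a region.

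Among the 4745 regions with at least 50 RelA and RelB reads, the lowest ratio was found at chr19:23975208-23975719 (hg18), 85656 bp from the TSS of AC011503.4, with 55 RelA and 12 RelB reads and a ratio of -2.69 (interval -3.81 to -1.86). Here only RelA was called. The region at chr2:63668489-63670006 overlapped a TSS and held 64 RelA, 17 RelB, 173 p50 and 76 p52 reads. Its ratio was -2.43, and only p50 was called. The region at chr6:149740700-149741894 held 80 RelA and 21 RelB reads, with 6 p50 and 186 p52 reads, and only p52 was called. The other 2 of the 5 lowest had ratios of -2.48 and -2.29.

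The highest ratio was found at chr2:91678967-91679338, with 4 RelA, 63 RelB, 10 p50 and 5 p52 reads and a ratio of 3.10 (interval 1.97 to 5.32), where RelB alone was called. The other 4 of the 5 highest, with ratios from 2.55 to 2.83, were called for p50, p52 and RelB. One of them, chr1:40906793-40907562, lay 2878 bp from a TSS and held 12 RelA and 121 RelB reads, with a RelB fold enrichment of 25.8. Another, chr5:807029-807915, lay 1338 bp from a TSS and held 14 and 130 reads. The highest ratio was thus in a region called for RelB alone and the next 4 in regions called with p50 and p52, and 4 of the 5 strongest to RelA in regions called for a single subunit.

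At the level of genes, reads were summed over the regions whose closest TSS belonged to a gene. Of 7652 genes, with a median log2 ratio of -0.11, 514 were at least 2-fold to RelB (6.72%) and 1023 at least 2-fold to RelA (13.4%). In the 2077 genes with at least 100 RelA and RelB reads, the median was 0.15, and 6.79% were at least 2-fold to RelB and 1.54% to RelA. A symbol was at hand for 1025 genes, 401 of them with at least 100 reads. In the 520 genes with at least 5 regions the median SD of the ratio between regions of a gene was 0.80, and over all 14865 regions the SD was 0.92, with 0.60 from counting alone.

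Genes of the NF-κB and IκB proteins themselves lay toward RelB. All 7 of the 10 listed genes that had a symbol had a region, their median ratio was 1.04, and 5 of the 7 were at least 2-fold to RelB. NFKB2 (ENSG00000077150) had 1 region, chr10:104143410-104146372 (hg18), which overlapped its TSS and held 112 RelA, 495 RelB, 947 p50 and 1152 p52 reads. Its ratio was 1.55 (exact interval 1.27 to 1.87), and the enrichment over input was 12.4-fold by RelA and 55.3-fold by RelB. Both subunits were called at this gene of the p52 precursor.

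RELB, which encodes the subunit itself, had 76 RelA and 291 RelB reads in 2 regions and a ratio of 1.34 (0.99 to 1.74). Its TSS region, chr19:50196148-50197531, held 45 and 207 reads, a ratio of 1.60, and that 14598 bp away 31 and 84 reads, a ratio of 0.83. Both regions of RELB thus lay on the RelB side.

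BCL3 had 224 RelA and 692 RelB reads in 5 regions, a ratio of 1.04 (0.83 to 1.27). Its regions ranged from 1.62 at the TSS, with the consensus shown above, to -1.58 in a region of 15 RelA and 7 RelB reads called for p52 alone. NFKBIA had 215 and 660 reads in 3 regions, a ratio of 1.03 (0.81 to 1.27), and REL 116 and 358 reads in 4 regions, a ratio of 1.04 (0.74 to 1.36). In REL each of the 4 regions was above 0.8.

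NFKB1 and RELA, which encode the subunits of the canonical dimer, were the exceptions in the list. NFKB1 had 139 RelA and 181 RelB reads in 7 regions, a ratio of -0.20 (-0.53 to 0.13). At its TSS region the enrichment over input was 11.5-fold by RelA and 10.1-fold by RelB. RELA had 71 and 101 reads in 2 regions, a ratio of -0.08 (-0.52 to 0.39), and its TSS region, chr11:65186640-65188132, held 47 RelA and 65 RelB reads. The intervals of both genes spanned equal shares and did not reach those of the other 5. All 7 genes had more than 100 reads, where 6.79% of all genes were at least 2-fold to RelB.

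Genes of NF-κB signalling were less far to RelB. All 5 of the 11 listed genes with a symbol had a region, none was at least 2-fold to either side, and the median was 0.27. BIRC3, which encodes the ubiquitin ligase cIAP2, had 83 RelA and 192 RelB reads and a ratio of 0.62 (0.25 to 1.02). TNFAIP3, which encodes the inhibitor A20, had 303 and 571 reads in 18 regions and a ratio of 0.33 (0.13 to 0.54). TNIP1, a partner of A20, and TRAF1, an adaptor of TNF receptors, had ratios of 0.22 and 0.12 with intervals that included 0.

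**Figure D5:**
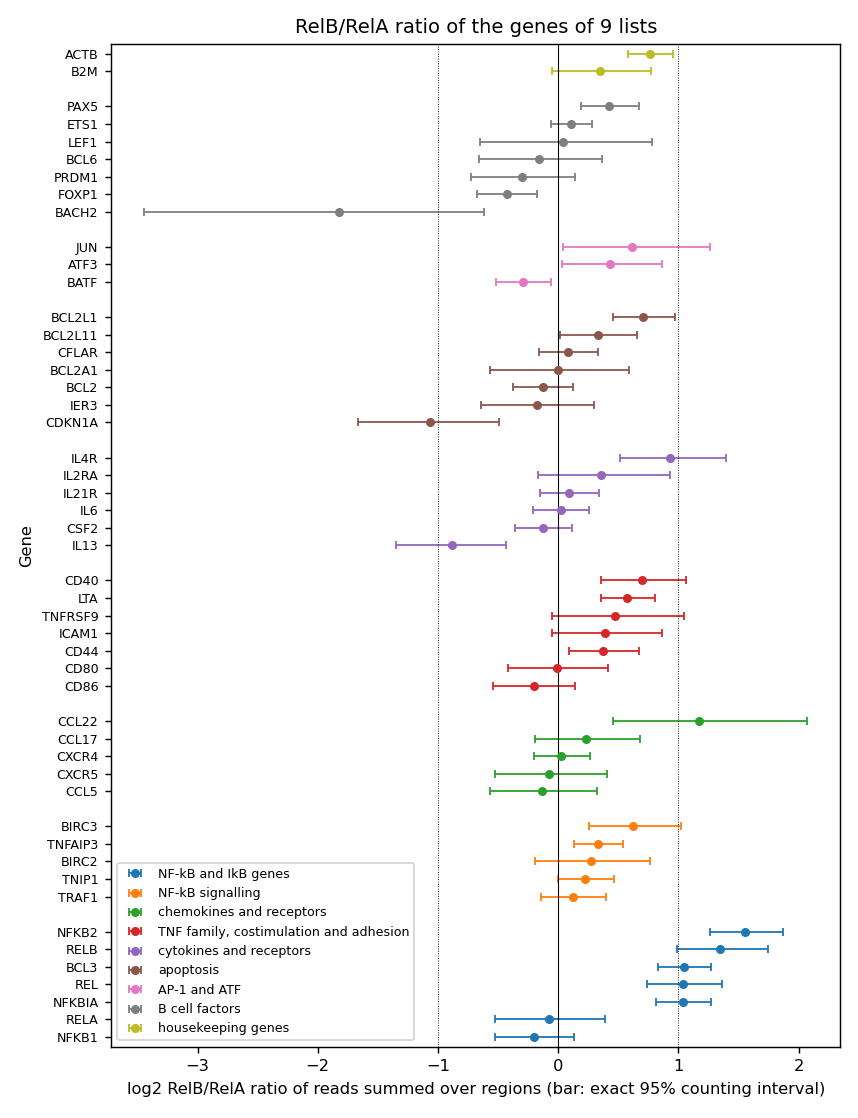
Log2 RelB/RelA ratio of the reads summed over the regions of each gene (x axis), with exact 95% counting intervals, for the members of 9 gene lists that had a symbol and a region (y axis, coloured by list); dotted lines mark 2-fold. NFKB2, RELB, BCL3, REL and NFKBIA lie above 1, whereas NFKB1 and RELA lie near 0 and CDKN1A lies at -1.06.

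Chemokines and their receptors lay near equal shares, with a median of 0.03 for 5 of 12 listed genes. CXCR4, the receptor of CXCL12, had 250 RelA and 381 RelB reads in 10 regions and a ratio of 0.03. CCL17, a chemokine secreted by Hodgkin lymphoma cells, had 71 and 125 reads and a ratio of 0.23 (-0.19 to 0.68). CCL22, which acts on the same receptor as CCL17, was the only one of the 5 at least 2-fold to RelB, with 18 and 63 reads and a ratio of 1.17 (0.45 to 2.07).

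Of the TNF family, costimulation and adhesion genes 7 of 18 had a value, with a median of 0.39 and none past 2-fold. The interval lay above 0 for CD40, the receptor of CD40 ligand, at 0.69 (0.36 to 1.06), for LTA, which encodes lymphotoxin alpha, at 0.58 (0.36 to 0.80), and for CD44, an adhesion receptor, at 0.37. For CD86 and CD80, ligands of CD28, it spanned 0, at -0.20 and -0.01. The median of this list was above the 0.15 of all genes with at least 100 reads, as was the 0.55 of the 2 housekeeping genes.

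Cytokine and cytokine receptor genes pointed in both directions. Of 6 of 10 listed genes with a value the median was 0.06, and none was past 2-fold. IL4R, the receptor chain shared by IL-4 and IL-13, had 60 RelA and 173 RelB reads and a ratio of 0.93 (0.52 to 1.40). Its TSS region, chr16:27232349-27233673, held 30 and 139 reads, a ratio of 1.60, and the region 3821 bp away 30 and 34 reads, a ratio of -0.40. IL13 had 93 RelA and 75 RelB reads in 4 regions and a ratio of -0.89 (-1.35 to -0.43). Its regions were also unequal, from -2.10 with 22 RelA and 7 RelB reads to 0.68 with 14 and 35 reads in the region 1653 bp from the TSS, the only one called for RelB. IL6 and CSF2, with 14 and 8 regions, lay at 0.02 and -0.12.

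Apoptosis genes had a median of 0.00 in 7 of 10 listed genes. BCL2L1, which encodes the survival factor BCL-xL, had a ratio of 0.71 (0.45 to 0.97) from 175 RelA and 428 RelB reads. At its TSS it had 91 and 136 reads and a ratio of 0.00, whereas the regions 4490 bp and 37558 bp away had ratios of 1.10 and 1.42. CDKN1A, which encodes the cell cycle inhibitor p21, had 62 RelA and 44 RelB reads and was the only member past 2-fold, to RelA, at -1.06 (-1.67 to -0.49). CFLAR and BCL2, both inhibitors of cell death, lay at 0.08 and -0.13 with intervals that included 0.

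AP-1 and B cell factors were mixed. In 3 of 9 AP-1 and ATF genes the ratios were 0.61 for JUN, 0.43 for ATF3 and -0.29 (-0.52 to -0.06) for BATF. In 7 of 12 B cell factors the median was -0.16. PAX5, a B cell identity factor, had 219 RelA and 440 RelB reads and a ratio of 0.42 (0.19 to 0.67), while FOXP1 had 253 and 281 reads and a ratio of -0.43 (-0.68 to -0.18). ETS1 had 458 and 739 reads in 21 regions and a ratio of 0.11. BACH2 was past 2-fold to RelA at -1.83, on 18 RelA and 7 RelB reads only, with an interval from -3.44 to -0.61. Of 2 housekeeping genes with a value ACTB had a ratio of 0.76 and B2M of 0.35.

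Among the 401 named genes with at least 100 reads the 10 highest ratios were all 1.28 or more. LASS4, which encodes a ceramide synthase, had 64 and 293 reads and a ratio of 1.60, and ASGR2, a chain of the asialoglycoprotein receptor, 26 and 120 reads and a ratio of 1.58. TCF3, which encodes the B cell factors E12 and E47, had 137 and 526 reads in 5 regions and a ratio of 1.35 (1.09 to 1.64). Its TSS region was at 0.80 and 3 regions at 13347 to 16768 bp were at 1.52, 1.67 and 1.91.

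Of the highest 10, NFKB2 and RELB are given above. FAM129A lay at 1.40, CEBPG, a bZIP factor, at 1.37, and IFIH1, which encodes the RNA sensor MDA5, at 1.28, each on 1 region that overlapped the TSS and was called for RelB. BCAS1 lay at 1.34, and 1 of its 4 regions, with 58 RelA and 326 RelB reads, had a ratio of 1.89 while the other 3 were below 0.

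The 10 lowest ratios ranged from -1.46 to -0.75. FLOT1 (ENSG00000137312), which encodes the membrane raft protein flotillin 1, had 69 RelA and 37 RelB reads and a ratio of -1.46 (-2.10 to -0.88) in 1 region, chr6:30817743-30819274, which overlapped its TSS and was called for p50 and p52. TMEM173, which encodes STING, an adaptor of DNA sensing, had 79 and 47 reads in 3 regions and a ratio of -1.32 (-1.88 to -0.79), with all 3 regions below 0 and called for p52 alone. CDKN1A followed at -1.06. None of the regions of these 3 genes was called for RelA or RelB, as was the case for 10826 of all 14865 regions.

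The remaining lowest genes were AC134878.3-1, BZRAP1, CACNA1C, AC024940.39-3, IL13, ALG10 and ADI1. BZRAP1 had the most reads of these, 248 RelA and 183 RelB, in 2 regions with ratios of -1.20 and -0.79. CACNA1C, a calcium channel gene, had regions from -2.53 to 0.42. The 4 regions of ALG10 lay 662239 bp or more from its TSS and had similar read numbers for all 4 subunits, 227, 187, 146 and 249 reads in sum for RelA, RelB, p50 and p52. Among all regions of the 10 lowest genes, 1 of the 6 regions of CACNA1C was the only one called for RelA. Over all regions 3.31% had this call. As each of these genes had only 1 to 6 regions, a lack of RelA calls cannot be read from this count.

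Finally, the regions that hold an amplicon of the study's ChIP-qPCR primer list were examined. Of 24 amplicons 18 for tested sites lay in 17 regions, with a median ratio of 0.76 and a range from -0.68 to 1.62. In 6 of the 17 regions the ratio was at least 2-fold to RelB and in none to RelA. Over all regions these shares were 9.63% and 16.6%, and in the regions called for RelB 22.5% and 1.68%. The JUNB region, chr19:12762930-12766215, held 155 RelA and 393 RelB reads, a ratio of 0.76 (0.49 to 1.04), and fold enrichments of 14.3 and 48.9. The regions of CCR7 and CD70 had ratios of 0.14 each, and that of TP73 of 0.32, with intervals that included 0. The STAT5A region overlapped the TSS, held 60 RelA and 56 RelB reads and had the lowest ratio, -0.68 (-1.23 to -0.13).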

How the data were processed

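ChIP-seq libraries of L1236 cells were processed by the authors with CASAVA, Bowtie (hg18, unique reads) and SAMtools (duplicate removal), reduced to at most 10000000 reads, and called with MACS and IDR. Versions were not given in the sources used here. The deposited read counts are whole, unnormalized reads per region from merged replicates, and whether they precede the reduction is not stated. The deposited fold enrichment is the MACS ratio over input, and the deposited pileup is a coverage signal at the summit. The deposited signal values are a score per replicate of unnamed scale, and which replicate each column holds is not given. The deposited IDR, a fraction, did not exceed 0.01 for called regions. The FDR, a q-value of the authors, was not used. Distances to TSS are the authors' (Ensembl 54, within 1 Mb).

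Ratios were computed as described, with a pseudocount of 1 read and a 2-fold limit. Exact Clopper-Pearson intervals of the read share, Wilson intervals and order-statistic intervals of medians (95%) were used, and these were tested on simulated data. As each subunit has 1 merged value per region, no test was made. Depth is the summed count per subunit, 315151 RelA and 470788 RelB reads in regions, and it limits precision in regions of few reads.

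Named were the 10 highest and lowest genes with at least 100 RelA and RelB reads and a symbol, members of 9 gene lists (2 to 4 with the most reads as examples, and others outside this rule chosen after their values were seen), regions with primer amplicons, the 5 highest and lowest regions with at least 50 reads, and those with the most reads. Members and lists were chosen with earlier results of these data known. Symbols came from the study's tables, which were readable in part. List members without a symbol were not analysed here. Some genes and a site that these rules select are not reported here. The region sequences in hg18 were not used here. Alternatives covered the pseudocount, the scaling, read filters, subsets of regions, the TSS limit, the measure of enrichment and the gene assignment. Scripts ran in Python 3.11.15 with scipy 1.17.1, numpy 2.4.6, pandas 2.3.3 and matplotlib 3.10.9.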

Additional observations from a re-analysis of the deposited data

How the results depend on the processing

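The median log2 ratio of all regions was -0.15 with a pseudocount of 0.5 reads, -0.26 with 5 reads, -0.12 with a pseudocount in proportion to each sum, -0.22 with sums without the 100 regions with most RelA reads, -0.043 with at least 20 RelA and RelB reads, 0.48 in regions called for RelB or RelA, 1.76 with the mapped reads of the libraries, and 0.94 with these limited to 10000000 a library. The share at least 2-fold to RelB was 4.19%, 22.2%, 80.8% and 47.4% with 5 reads added, in regions called for RelB or RelA, with mapped reads and with limited mapped reads, and that to RelA was 2.50%, 0.531% and 2.45% in the last 3. The TSS difference was -0.16 with 5 reads added, -0.40 with at least 20 reads and -0.14 with a limit of 5 kb for near regions. It stayed below 0 in every alternative run, which did not include the regions called for both subunits, where the read ratio was higher at the TSS. The difference between the widest and narrowest quartiles was reversed to -0.15 with at least 20 reads and to -0.21 in regions called for RelB or RelA. That between most and fewest total reads was 0.080 with at least 20 reads, -0.40 in called regions, 0.68 per kb and 0.48 with the proportional pseudocount. The cause of these changes was not tested, apart from the scalings, which shift all ratios alike. The rho with the p52/p50 ratio was 0.262 with at least 20 reads and 0.104 in called regions. The median fold enrichment ratio of regions called for both was 1.00 by pileup, 0.11 by read counts, and 2.22 and 3.09 by the first and second signal columns. The other 39 values stayed within the interval of the reported value or within 1.5 times the share, among them all 8 without the 73 high-background regions. The limited mapped reads, the proportional pseudocount and the exclusion of high-background regions were chosen after seeing the data.

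No paired analysis was possible because the counts come from merged replicates and the ratio comes from no test. For the same reason leaving out each replicate could not be done. Read depth limits single regions, since the 1040 regions with fewer than 10 reads had a spread close to that of counting alone.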

Other observations

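The ratio differed between chromosomes. The 51 regions of chromosome Y had the lowest median, -0.96 (interval -1.06 to -0.65), with medians of 64 RelA and 68 RelB reads in a region, against 14 and 19 over all regions. Of these 51 regions 94.1% were called for RelB and 27.5% for RelA, against 26.8% and 3.31% of all regions. The 226 regions of chromosome 13 had the highest, 0.09 (-0.11 to 0.24), and those of the other chromosomes lay between -0.29 and -0.02. In the 437 regions called for both subunits, the summits lay within 250 bp of each other in 91.3% of the 219 regions with the higher read ratio and in 85.8% of the 218 with the lower.

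The reference amplicon of ACTB lay in a region, chr7:5533795-5537236 (hg18), which overlapped the TSS and held 78 RelA, 71 RelB, 472 p50 and 116 p52 reads. Its ratio was -0.71 (-1.20 to -0.23), and p50 alone was called there, whereas the 7 regions of ACTB together had a ratio of 0.76.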
